A study of Mus musculus with 6 samples.

Results

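The genes of the eukaryotic translation initiation factors were examined in hippocampal RNA of ovariectomised mice that ate a control diet or a royal jelly diet. Members were all rows of the deposited count table that are typed as protein-coding and whose symbol begins with Eif and a digit from 1 to 6. The rule found 53 genes among 32066 named features, of which 18110 are protein-coding, and 52 of the 53 had enough counts to be tested. Every library came from a wild type female C57BL/6J mouse hippocampus at 17 weeks of age after removal of both ovaries, so loss of ovarian hormones is shared by both groups. The OVX group (3 libraries) ate the control diet and the OVX+RJ group (3 libraries) ate a diet with 1% royal jelly, the secretion that worker honeybees feed to larvae, from 8 weeks of age on. Sham-operated mice are not analysed here, so no level can be set against mice with ovaries. The labels call the libraries of a group biological replicates without saying whether each came from 1 animal, so p-values measure only the spread between these libraries.

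Initiation is the step of protein synthesis at which a small ribosomal subunit finds the start codon of an mRNA. eIF2 brings the initiator tRNA, eIF3 holds the small subunit and the mRNA together, the eIF4 factors bind the mRNA cap and unwind the leader, and eIF1, eIF1A, eIF5 and eIF5B check the start codon and join the large subunit. In neurons of the hippocampus the same step is a known control point of lasting synaptic change, through phosphorylation of eIF2 by its kinases and through the 4E-BP proteins that hold eIF4E. Much of that control acts on proteins, which RNA counts do not show.

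Levels are given as CPM, the counts of a gene per 1000000 counts over all rows of the table. The libraries held between 34718607 and 58163790 counts. OVX+RJ 1 stood apart from the rest: averaged over its pairs with the other 5, its Pearson r over genes was 0.983, where the remaining libraries gave 0.986 to 0.987. Neuronal markers summed to between 6941 and 7261 CPM and liver markers to at most 0.466 CPM. Other sums differed more between libraries, with groups that overlapped. Oligodendrocyte markers ran from 2949 to 4868 CPM, dentate granule cell markers from 398 to 607 and choroid plexus markers from 25.2 to 54.1 CPM. Marker sums of endothelial cells were lower in every OVX+RJ library, at 144 to 161 CPM against 180 to 193 CPM in OVX, and those of pericytes and smooth muscle were 154 to 163 against 172 to 181 CPM. The part of any of these marker sums in the values below was not tested. In bulk tissue, fewer cells of a type and less RNA per cell cannot be told apart.

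Initiation factor genes had nearly the same RNA levels under both diets. By the quasi-likelihood test of edgeR, adjusted by the Benjamini-Hochberg method at 0.05, 0 of the 52 tested members were called, beside 0% of all 18629 genes tested. DESeq2 and limma-voom also called 0 members, and the lowest adjusted p of a member in edgeR was 0.986. At an unadjusted p under 0.05 there were 2 members, Eif3j2 and Eif1a, both with higher values in OVX+RJ. Over all genes tested 2.14% were higher and 1.91% lower at this p, 4.05% in all. The log2 fold change of OVX+RJ over OVX lay above 0 for 32 members and below 0 for 20, and its median was 0.012, beside 49.6% positive and a median of -0.0015 over all genes tested. In CPM the groups did not overlap at 5 members, 3 higher and 2 lower in OVX+RJ. Beside these stand 4.53% of all genes tested that were higher without overlap and 5.95% that were lower, 10.5% in all, so the members' share lies near that of all genes.

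Together the 53 members made up between 0.618% and 0.636% of the counts of a library. Their summed level was 6182, 6245 and 6273 CPM in OVX 1, 2 and 3, and 6357, 6362 and 6202 CPM in OVX+RJ 1, 2 and 3. The groups overlapped, since OVX+RJ 3 lay below OVX 2 and 3. The means were 6233 ± 46.5 CPM in OVX and 6307 ± 91.0 CPM in OVX+RJ (SD, n = 3 each), with a two-sided exact permutation p of 0.3, where 3 against 3 libraries cannot give less than 0.1.

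The precision of these libraries was high for most members. For 46 of 52 the 95% interval of the fold change lay wholly within 1.25-fold in either direction, and for 50 of 52 within 1.5-fold, beside 38.5% and 63.1% of all genes tested. The 6 whose interval reached past 1.25-fold were Eif1ad, Eif2ak2, Eif2d, Eif3j2, Eif4e3 and Eif4ebp1. Intervals are wider for genes with few counts, so genes of low level were set aside. Among genes with a mean of at least 10 CPM, 93.9% of 49 members had an interval within 1.25-fold, beside 70.6% of 10060 genes, of which 97.3% lay within 1.5-fold. The spread over all 6 libraries, as a coefficient of variation of the CPM, had a median of 4.31% over those 49 members and of 7.07% over those 10060 genes. The members ran from 2.49% for Eif4e to 21.9% for Eif4e3. This floor does not match levels, and members tend to lie higher above it than other genes, so the part of level in these differences was not tested.

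**Figure D1:**
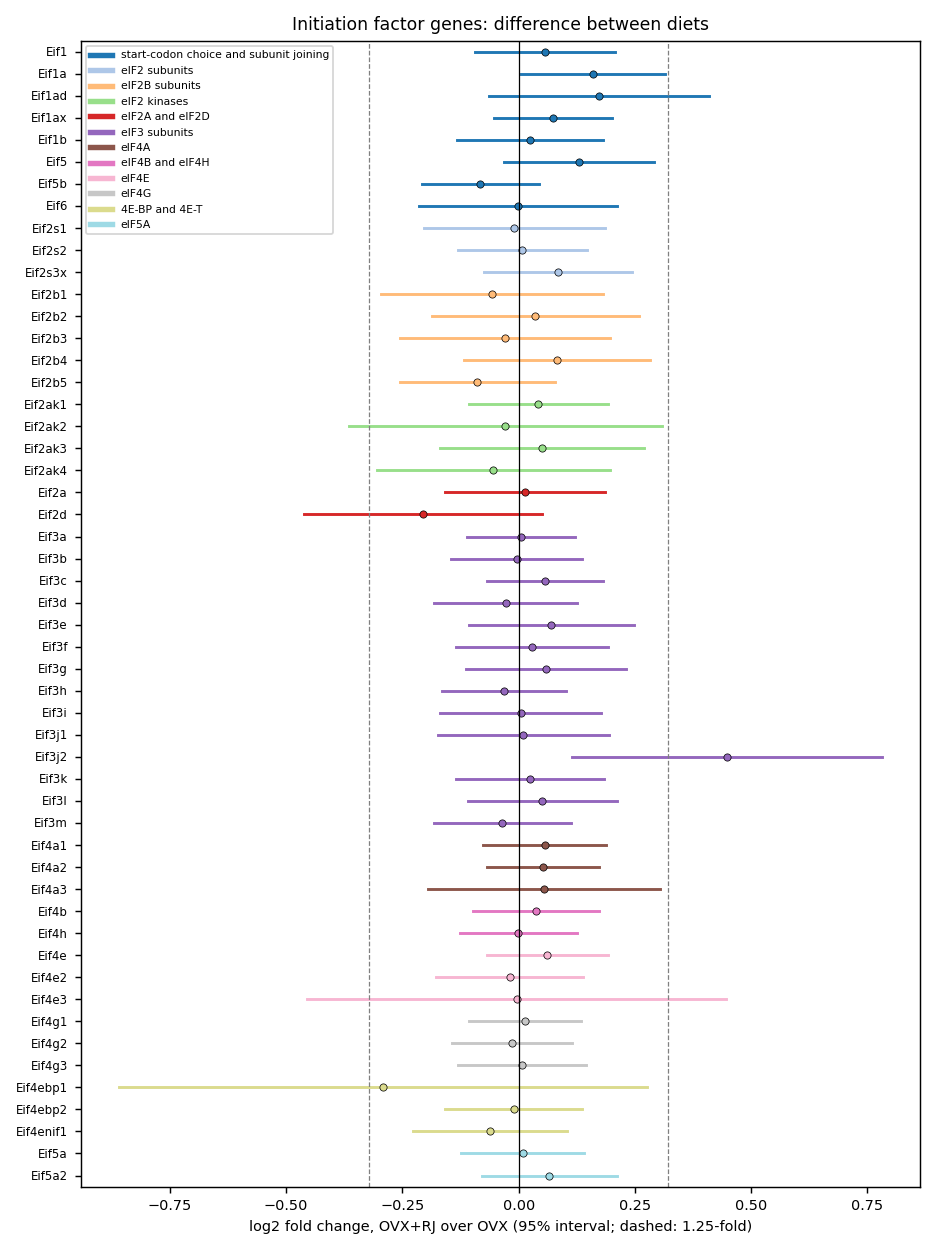
Log2 fold change of OVX+RJ over OVX for the 52 tested members, grouped and coloured by role; points are edgeR estimates and bars are 95% intervals from limma's moderated errors, with dashed lines at 1.25-fold in either direction. For 46 members the bar stays between the dashed lines; Eif3j2 and Eif4ebp1 have the points farthest from 0.

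To compare genes with each other, levels were divided by the length of the longest annotated transcript, giving CPM per kilobase. On this scale the members ran from 343 CPM per kilobase for Eif4a2 down to 0.313 for Eif4ebp3, with a median of 26.8. Of the 53 members 38 lay above 12.9 CPM per kilobase, the median of genes with at least 10 CPM and a known length. After Eif4a2 came Eif1 at 172, Eif5a at 152, Eif4a1 at 125 and Eif4h at 114 CPM per kilobase. Library ranges separated Eif4a2, Eif1, Eif5a and Eif4a1 in that order, with Eif1 between 161 and 187, Eif5a between 146 and 157, and Eif4a1 between 118 and 131, while the range of Eif4h, 108 to 118, touched that of Eif4a1. The place of Eif5a rests on the length used: over the union of its exons it stood at 91.8 CPM per kilobase, below Eif4a1 at 125 and Eif4h at 114. Of the 75-base stretches of Eif1 25.6% and of Eif4a1 62.9% occur in other genes. How reads from them were counted is not given in the sources, so their places are uncertain. The highest members are the RNA helicase of the cap complex and its cofactor, a start-codon factor and eIF5A. The lowest are 4E-BP3 and 4E-BP1 and the interferon-induced kinase gene Eif2ak2.

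**Figure D2:**
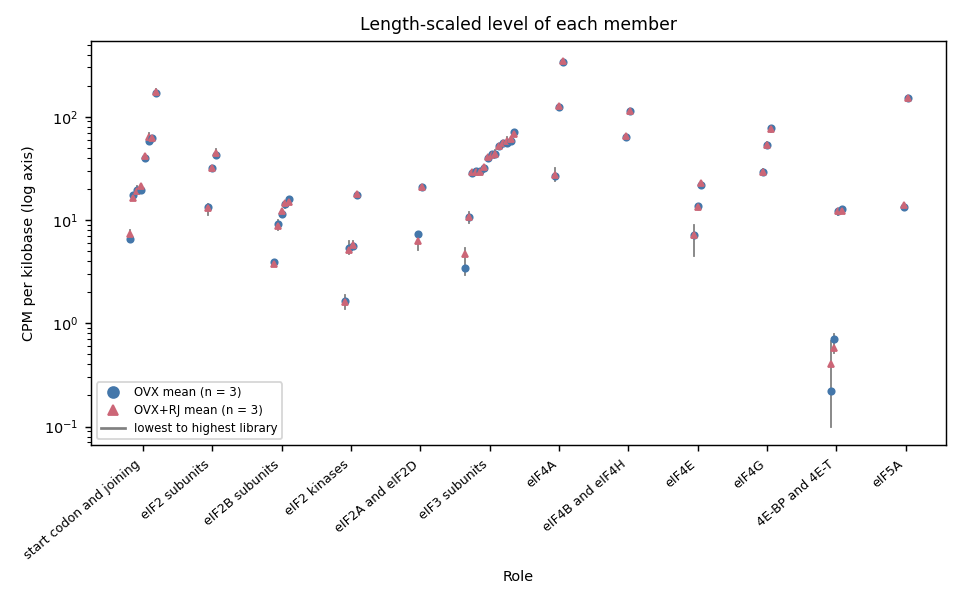
Length-scaled level of each of the 53 members (CPM per kilobase of the longest transcript, log axis), by role; circles are OVX means, triangles OVX+RJ means (n = 3 each), and grey bars span the lowest to the highest of the 6 libraries. Group means nearly coincide for most members, and levels run from 343 for Eif4a2 down to 0.313 for Eif4ebp3.

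Given first are the factors of start-codon choice and subunit joining. Eif1 encodes the factor that keeps the scanning ribosome from stopping at poor start sites. It stood at 212, 228 and 230 CPM in OVX 1, 2 and 3 and at 247, 225 and 219 CPM in OVX+RJ 1, 2 and 3. The groups overlapped, with the highest value in OVX+RJ 1, and the log2 fold change was 0.056 with an interval from -0.094 to 0.21. Its paralog Eif1b was 63.9 ± 3.39 CPM in OVX and 64.5 ± 1.51 CPM in OVX+RJ (SD, n = 3 each). Per kilobase Eif1 was 2.77 times as high as Eif1b, and Eif1b took 21.1% to 22.4% of the pair's CPM in every library. Of the 75-base stretches of Eif1 25.6% occur in other genes, against 0% of those of Eif1b, so this ratio is uncertain.

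The mRNAs of these factors carry start sites of their own, shown here because the start codon is what these factors read. In the sequences below, from GENCODE M21 transcripts (GRCm38), capitals mark the base at position -3, the start codon and the base at +4, counted from the first base of the start codon as +1. A purine at -3 and a G at +4 are the letters known to favour recognition.
Eif1: gaatcgtatCgtATGTccgctatc
Eif1b: cactagtgtCgcATGTccactatc
Eif5: taataagccAaaATGTctgtcaac
Eif4g2: caagccgccAaaGTGGagagtgcg
Eif3e: tcccccggcAagATGGcggagtac
Eif3f: tttctcggcAagATGGcttctccg
Eif1 and Eif1b hold neither favourable letter, whereas Eif3e and Eif3f, subunits of the scaffold eIF3, hold both. Of 51 members with at least 6 annotated bases before the start codon, 4 held neither letter, 24 held 1 and 23 held both. The shares of these classes, 7.84%, 47.1% and 45.1%, lay near those of 14088 tested genes, 6.54%, 48.5% and 44.9%. The members that held neither were Eif1, Eif1b, Eif2b4 and Eif3b. Eif4g2, which encodes an eIF4G relative that lacks the eIF4E-binding part, starts at GTG, and it was the only gene among the 14088 annotated to do so. Leaders of members were short, with a median of 118 bases against 184 bases, and an ATG before the start codon was present in 29.4% of members and 53.3% of the tested genes. These shares are not matched for leader length, whose part in them was not tested. Among members with an upstream ATG, Eif5 held 5 and Eif4g1 held 4. Annotated leaders depend on the transcript chosen, and no letter here was read from the libraries.

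The eIF1A genes had higher values in OVX+RJ than in OVX without passing the test. Eif1a was 54.0, 56.6 and 56.4 CPM in OVX 1, 2 and 3 and 62.9, 63.5 and 58.7 CPM in OVX+RJ 1, 2 and 3. Each OVX+RJ library lay above each OVX library. The log2 fold change was 0.16 (SE 0.070), with an unadjusted p of 0.042 and an adjusted p of 0.986 in edgeR's test. Without OVX+RJ 1 it was 0.13, with an unadjusted p of 0.0791. Its X-linked paralog Eif1ax was 207, 195 and 215 CPM in OVX and 216, 219 and 211 CPM in OVX+RJ, so OVX+RJ 3 lay below OVX 3. The log2 fold change of Eif1ax was 0.074, with an interval from -0.053 to 0.20. The pair together made 262 ± 9.63 CPM in OVX and 277 ± 6.61 CPM in OVX+RJ, with a two-sided exact permutation p of 0.2. Eif1ad, whose product carries an eIF1A-like domain, was 16.8 ± 1.21 in OVX and 18.7 ± 1.56 CPM in OVX+RJ, or 0.17 on the log2 fold scale with an interval from -0.065 to 0.41.

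Eif5 encodes the protein that makes eIF2 hydrolyse its GTP at the start codon. Its level was 244, 222 and 245 CPM in OVX 1, 2 and 3 and 281, 246 and 245 CPM in OVX+RJ 1, 2 and 3. The groups did not overlap in CPM, but OVX+RJ 3 stood only just above OVX 3, and OVX+RJ 1 stood above all others. That margin is smaller than the difference between the TMM scaling factors, 1.00008 for OVX 3 and 1.00487 for OVX+RJ 3. Printed CPM leave these factors out, so the separation depends on the scaling. The log2 fold change was 0.13 (SE 0.074) with an unadjusted p of 0.109, and without OVX+RJ 1 it was 0.050. Eif5b encodes the GTPase that joins the large subunit. It was 141, 134 and 134 CPM in OVX and 129, 128 and 125 CPM in OVX+RJ. Here each OVX+RJ library lay below each OVX library, with a log2 fold change of -0.082 and an interval from -0.21 to 0.044. Eif6, whose product keeps large subunits from joining early, was 29.1 ± 1.72 against 28.9 ± 2.47 CPM.

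**Figure D3:**
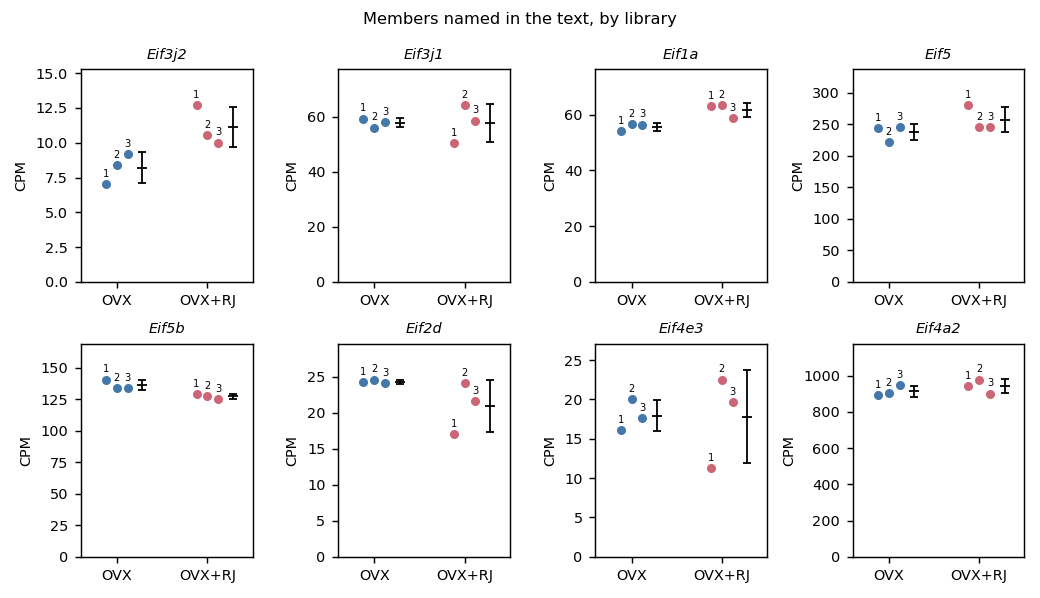
CPM of 8 members in each library, with the replicate number above each point and the mean ± SD of each group (n = 3) beside the points; every axis starts at 0. Groups do not overlap for Eif3j2, Eif1a, Eif5 and Eif5b, and OVX+RJ 1 is the lowest library for Eif3j1, Eif2d and Eif4e3.

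eIF2 is made of an alpha, a beta and a gamma subunit, and its alpha subunit is the protein that stress kinases phosphorylate. Eif2s1, the alpha subunit, was 44.9, 45.2 and 46.1 CPM in OVX 1, 2 and 3 and 38.4, 48.4 and 47.7 CPM in OVX+RJ 1, 2 and 3. OVX was narrow and OVX+RJ lay on both sides of it, with the lowest value in OVX+RJ 1. Its log2 fold change was -0.0094, with an interval from -0.20 to 0.19. Eif2s2, the beta subunit, was 81.8 ± 3.06 in OVX and 81.7 ± 1.76 CPM in OVX+RJ. Eif2s3x, the X-linked gamma subunit, was 156 ± 1.54 against 164 ± 13.8 CPM. Its log2 fold change was 0.084, and 0.0084 without OVX+RJ 1, where it stood at 178 CPM. Per kilobase the gamma gene was highest at 43.9, the beta gene was at 32.2 and the alpha gene at 13.3 CPM per kilobase, with library ranges that did not overlap. Of the 75-base stretches of Eif2s3x 35.0% occur in other genes, as do 21.7% of those of Eif2s2 and 3.24% of those of Eif2s1. How reads from them were counted is not given in the sources, so this order is uncertain.

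eIF2B recharges eIF2 with GTP, and mutations in its subunit genes cause a disease of brain white matter in people. Its 5 subunit genes were at low to middling levels, from 3.83 CPM per kilobase for Eif2b3 to 15.5 for Eif2b5. The low place of Eif2b3 rests on the length used: its longest transcript has 3754 bases, and the transcript used for its start codon 1555. Eif2b5, the catalytic subunit, was 39.2, 41.7 and 41.9 CPM in OVX and 36.3, 40.3 and 38.0 CPM in OVX+RJ. The groups overlapped at OVX+RJ 2 and OVX 1, and the log2 fold change was -0.089 with an interval from -0.26 to 0.077. Eif2b4 was 23.4 ± 1.62 against 24.5 ± 1.12 CPM and Eif2b1 was 18.6 ± 1.62 against 17.7 ± 1.35 CPM. The log2 fold changes of the 5 had mixed signs, 2 above and 3 below 0, around a median of -0.030.

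The 4 eIF2 kinases each answer to another stress. Eif2ak1, the heme-regulated kinase, was the highest at 17.8 CPM per kilobase, and stood at 76.0 ± 3.67 CPM in OVX and 77.6 ± 2.24 CPM in OVX+RJ. Eif2ak3 (PERK), the kinase of the endoplasmic reticulum, and Eif2ak4 (GCN2), which senses amino acid shortage, lay close together at 5.66 and 5.29 CPM per kilobase, with ranges that overlapped. That nearness rests on the length used: over the union of exons they stood at 5.28 and 3.86 CPM per kilobase. Eif2ak3 was 25.2, 23.7 and 26.7 CPM in OVX 1, 2 and 3 and 28.5, 24.0 and 25.2 CPM in OVX+RJ 1, 2 and 3. Eif2ak4 was 33.4, 27.3 and 25.3 CPM in OVX and 24.9, 26.5 and 30.7 CPM in OVX+RJ. For both genes libraries of 1 group lay above and below those of the other. Eif2ak2 (PKR), the kinase that binds double-stranded RNA, was 7.15 ± 0.915 against 6.95 ± 0.904 CPM, and its interval from -0.37 to 0.31 on the log2 scale was the widest of the 4.

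eIF2A and eIF2D can deliver tRNA to the ribosome by other routes than eIF2. Eif2a was 47.8 ± 2.16 against 47.9 ± 2.44 CPM. Eif2d was 24.3, 24.6 and 24.1 CPM in OVX 1, 2 and 3 and 17.0, 24.2 and 21.6 CPM in OVX+RJ 1, 2 and 3. The OVX libraries were nearly equal, OVX+RJ 2 lay among them and OVX+RJ 1 far below. On the log2 scale the fold change was -0.21 with an unadjusted p of 0.103, and -0.085 without OVX+RJ 1.

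eIF3 is the largest initiation factor, a complex of subunits a to m that binds the small ribosomal subunit. Of its 14 genes 10 had a log2 fold change above 0 and 4 below, and the median was 0.017. Leaving aside the genes of the loosely held subunit j, the 12 subunit genes lay within 2.41-fold of each other per kilobase, from 28.9 for Eif3l to 69.6 CPM per kilobase for Eif3h. They fell into steps whose library ranges did not overlap between steps: Eif3h alone at the top, then Eif3c, Eif3e, Eif3k and Eif3a between 50.7 and 63.2, then Eif3i, Eif3m and Eif3g between 37.4 and 47.3, and Eif3f, Eif3d, Eif3b and Eif3l between 27.6 and 34.2 CPM per kilobase. Within a step neighbours overlapped. The steps rest on the transcript length chosen: over the union of its exons Eif3k stood at 46.9 CPM per kilobase, within the range of the step below. Of the 75-base stretches of Eif3m 20.0% and of Eif3h 16.7% occur in other genes, the largest shares of the 12.

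The 12 core genes were level between diets. Eif3a, the largest subunit, was 272, 264 and 267 CPM in OVX 1, 2 and 3 and 260, 279 and 260 CPM in OVX+RJ 1, 2 and 3, with a log2 fold change of 0.0048 and an interval from -0.11 to 0.12. Eif3c, a scaffold subunit, was 198 ± 5.09 against 204 ± 4.79 CPM, at 0.057. Eif3h and Eif3m, smaller subunits, were 91.5 ± 2.60 against 88.9 ± 2.49 CPM and 55.9 ± 1.17 against 54.1 ± 2.03 CPM. In none of the 12 did the groups part.

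Some promoters of eIF3 genes held a short motif, and for each of these the site nearest the gene start is shown because eIF3 has the most members with it. The motif CCGGAAG, the core bound by ETS family factors, or its reverse complement CTTCCGG was found in RefSeq promoters (GRCm38.p6, 250 bases before to 50 after the gene start) of 5 of the 10 eIF3 genes with a promoter entry. Over all members it was in 38.1% of 42 promoters, beside 9.93% of all 27025 genes and 17.2% of 12742 tested genes. This motif holds a CpG, a C followed by a G. The median ratio of observed to expected CpG was 0.859 in member promoters, 0.731 in tested genes and 0.389 in all genes. The part of this ratio in the motif's share was not tested. The motif was not particular to eIF3: both eIF5A promoters held it, as did those of Eif4ebp2 and Eif4enif1, 3 of 6 among the start-codon factors and 2 of 4 among the eIF2B genes. In capitals is the motif, on the strand of the gene.
Eif3c, chr7:126566382-126566412, minus strand: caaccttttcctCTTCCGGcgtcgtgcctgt
Eif3d, chr15:77970876-77970906, minus strand: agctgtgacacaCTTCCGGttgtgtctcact
Eif3g, chr9:20898616-20898646, minus strand: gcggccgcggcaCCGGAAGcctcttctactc
Eif3l, chr15:79075176-79075206, plus strand: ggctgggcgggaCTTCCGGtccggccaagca
Eif3m, chr2:105017064-105017094, minus strand: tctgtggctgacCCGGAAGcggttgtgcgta
The motif began 34, 70, 44, 35 and 55 bases before the gene start in these genes in turn, and Eif3c held a further copy. These matches describe letters and not binding. The GC box GGGCGG (reverse complement CCGCCC) was in 76.2% of member promoters against 64.7% of tested genes, TATAAA (reverse complement TTTATA) in 7.14% against 9.29%, and the cyclic AMP response element TGACGTCA, its own reverse complement, in 0% against 3.29%. The motifs were chosen after the data had been examined.

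Of the subunit j genes, Eif3j2 had the highest log2 fold change among the members and Eif3j1 one of 0.010. Eif3j2 was 7.0, 8.41 and 9.18 CPM in OVX 1, 2 and 3 and 12.7, 10.6 and 10.004 CPM in OVX+RJ 1, 2 and 3. All OVX+RJ libraries lay above all OVX libraries. The log2 fold change was 0.45 (SE 0.15), with an unadjusted p of 0.0137 and an adjusted p of 0.986 in edgeR's test, and without OVX+RJ 1 it was 0.32 with an unadjusted p of 0.049. Eif3j1, a copy on another chromosome, was 59.2, 56.0 and 58.1 CPM in OVX and 50.5, 64.3 and 58.5 CPM in OVX+RJ. Eif3j1 was thus lowest in OVX+RJ 1, where Eif3j2 was highest.

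Sequence that both copies share makes their split uncertain. Of the 75-base stretches of Eif3j2 transcripts 87.4% also occur in Eif3j1 transcripts, whereas 37.7% of those of Eif3j1 occur in Eif3j2. How the counting divided reads from shared stretches between the copies is not given in the sources used here. Their sum, which does not depend on that split between the copies, was 66.2, 64.4 and 67.3 CPM in OVX 1, 2 and 3 and 63.2, 74.9 and 68.5 CPM in OVX+RJ 1, 2 and 3. The groups overlapped in the sum, with a two-sided exact permutation p of 0.5. The share of Eif3j2 in the sum was 10.6%, 13.1% and 13.6% in OVX libraries against 20.1%, 14.1% and 14.6% in OVX+RJ libraries, and did not overlap between groups. Its two-sided exact permutation p was 0.1, the smallest that 3 against 3 libraries can give. Eif3j2 was named for its low p and the share uses the same counts, so this is no separate evidence of a difference.

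The eIF4F complex of cap-binding protein, scaffold and helicase was level between diets in each of its parts. Eif4e, the cap-binding protein, was 111, 108 and 109 CPM in OVX 1, 2 and 3 and 115, 114 and 110 CPM in OVX+RJ 1, 2 and 3. OVX+RJ 3 lay between the OVX libraries, and the log2 fold change was 0.062 with an interval from -0.067 to 0.19. Eif4g1, the main scaffold, was 300 ± 7.71 against 301 ± 15.3 CPM, with a log2 fold change of 0.014 and an interval from -0.11 to 0.13. Eif4g3, a further scaffold, was 235 ± 17.98 against 235 ± 3.62 CPM. Eif4g2, the eIF4G relative without the eIF4E-binding part, was 599, 627 and 637 CPM in OVX and 563, 651 and 617 CPM in OVX+RJ. Its log2 fold change was -0.015. Per kilobase the eIF4G genes stood at 77.0 for Eif4g2, 53.3 for Eif4g1 and 28.9 CPM per kilobase for Eif4g3, with ranges that did not overlap.

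Of the helicase genes Eif4a2 had the highest level of all members, both in CPM and per kilobase. Eif4a2 was 892, 904 and 948 CPM in OVX 1, 2 and 3 and 944, 978 and 901 CPM in OVX+RJ 1, 2 and 3. OVX+RJ 3 fell between OVX 1 and OVX 2, and the log2 fold change of 0.052 had an interval from -0.068 to 0.17. Eif4a1 was 209, 223 and 225 CPM in OVX and 232, 229 and 217 CPM in OVX+RJ, at 0.056. Eif4a2 exceeded Eif4a1 by 2.73 times per kilobase, and Eif4a1 took 18.9% to 19.8% of the pair's CPM in every library. Of the 75-base stretches of Eif4a1 62.9% occur in other genes, among them the pseudogene Eif4a-ps4, which is listed at 37.1 to 43.3 CPM. The sum of Eif4a1 and that pseudogene was 259 ± 10.8 CPM in OVX and 268 ± 9.49 CPM in OVX+RJ. Eif4a3, a helicase of the exon junction complex that shares the family name, was 40.9, 41.5 and 37.2 CPM in OVX and 48.5, 38.5 and 36.0 CPM in OVX+RJ. The high value of Eif4a3 in OVX+RJ 1 set its sign: 0.054 with all libraries and -0.097 without that one.

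Some promoters of the cap complex held the E-box CACGTG, its own reverse complement and the site of MYC and related factors. It was in 23.8% of 42 member promoters, beside 8.09% of all 27025 genes and 11% of 12742 tested genes. The E-box also holds a CpG, and the part of the members' higher CpG ratio in this share was not tested. Eif4e, Eif4g1 and Eif4a1, which encode the cap-binding protein, a scaffold and a helicase of eIF4F, each held it, and 1 site of each is shown for that reason. It was not particular to the cap complex: the other members with it were Eif1b, Eif3a, Eif3f, Eif3k, Eif4h, Eif5a and Eif5a2.
Eif4e, chr3:138527192-138527221, plus strand: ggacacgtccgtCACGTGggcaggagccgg
Eif4g1, chr16:20672661-20672690, plus strand: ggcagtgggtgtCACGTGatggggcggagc
Eif4a1, chr11:69672595-69672624, minus strand: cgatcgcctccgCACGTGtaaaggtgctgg
The site began 64, 54 and 189 bases before the gene start in turn. Eif4a2, the more abundant helicase gene, held no such site in its entry.

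Helpers of the helicase were also level. Eif4h was 310, 313 and 310 CPM in OVX 1, 2 and 3 and 322, 307 and 295 CPM in OVX+RJ 1, 2 and 3, so OVX was narrow and OVX+RJ spread around it. Eif4b was 244 ± 1.66 against 249 ± 13.9 CPM. The log2 fold changes were -0.0012 and 0.037, with intervals from -0.13 to 0.12 and from -0.098 to 0.17.

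Among the 4E-BP genes Eif4ebp2 had the highest level, at 12.2 CPM per kilobase, near Eif4enif1 at 12.6 and Eif4e2 at 13.6 CPM per kilobase. The place of Eif4e2 rests on the length used: over the union of its exons it stood at 6.31 CPM per kilobase. Eif4ebp2, the 4E-BP known as the main form of the brain, was 70.3, 70.0 and 73.2 CPM in OVX and 65.3, 73.6 and 71.4 CPM in OVX+RJ. Its log2 fold change was -0.011, with an interval from -0.16 to 0.14. Eif4ebp1, the form most studied in other tissues, was 1.56, 1.34 and 1.35 CPM in OVX and 1.04, 1.07 and 1.33 CPM in OVX+RJ. The OVX+RJ values of Eif4ebp1 all lay below the OVX values, by little for OVX+RJ 3, and rested on 40 to 78 counts a library. Its log2 fold change of -0.29 had an interval from -0.86 to 0.28. Per kilobase Eif4ebp2 was 19.0 times as high as Eif4ebp1. Eif4ebp3 had 9, 9 and 3 counts in OVX and 6, 10 and 18 counts in OVX+RJ, too few to test.

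Eif4e2, a cap-binding protein that represses translation, was 47.8 ± 1.80 against 46.8 ± 2.42 CPM. Eif4enif1, which carries eIF4E into the nucleus and into P-bodies, was 47.9 ± 1.54 against 45.5 ± 2.00 CPM, at a log2 fold change of -0.062. Eif4e3 varied more than any other tested member above 10 CPM. It was 16.1, 20.0 and 17.6 CPM in OVX 1, 2 and 3 and 11.2, 22.5 and 19.7 CPM in OVX+RJ 1, 2 and 3. OVX+RJ held both the lowest and the highest library, and the log2 fold change moved from -0.0042 to 0.23 without OVX+RJ 1, with an unadjusted p of 0.0735.

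eIF5A carries the modified residue hypusine and helps the ribosome through difficult peptide bonds. Eif5a was 210, 224 and 222 CPM in OVX and 226, 210 and 219 CPM in OVX+RJ, with a log2 fold change of 0.0089 and an interval from -0.12 to 0.14. Eif5a2, its paralog, was 67.1 ± 0.844 against 69.7 ± 3.70 CPM, with OVX+RJ 3 the highest at 74.0 CPM. Per kilobase Eif5a was 11.2 times as high as Eif5a2.

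The library labelled OVX+RJ 1 was the highest or the lowest of the 6 for 33 of 52 members, 19 times the highest and 14 times the lowest. That is 63.5% of members, beside 50.96% of genes with at least 10 CPM. The next was OVX 1 with 17 members. The median member of OVX+RJ 1 lay only 0.035 above its mean over the libraries on the log2 scale, so deviations in that library went both ways.

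**Figure D4:**
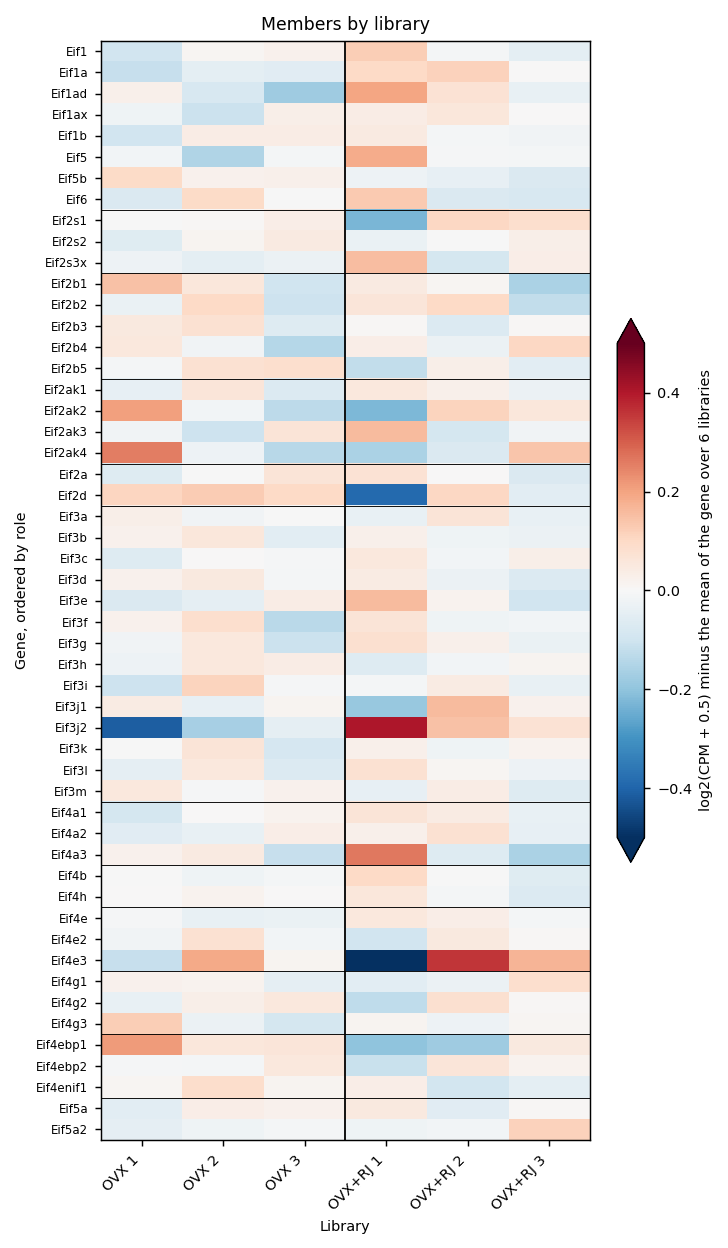
Deviation of each tested member in each library, as log2(CPM + 0.5) minus the mean of the gene over the 6 libraries, with members ordered by role and a vertical line between the diets. Strong colours stand mostly in OVX+RJ 1, low for Eif4e3 and Eif2d and high for Eif3j2 and Eif4a3, beside a low Eif3j2 in OVX 1 and a high Eif4e3 in OVX+RJ 2, and most other cells are pale.

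Other genes of translation were also without a call. In each of 7 related lists edgeR called 0 genes after adjustment, and 0 had an unadjusted p under 0.05, beside 4.05% of all genes tested. Elongation factor genes had 7 of 8 log2 fold changes below 0, with a median of -0.067, and Eef1a1, which brings tRNA to the elongating ribosome, was 2025 ± 58.5 CPM in OVX and 1941 ± 63.0 CPM in OVX+RJ. Genes of termination and recycling had 5 of 7 above 0, with a median of 0.048, and Abce1, which splits ribosomes, was 109 ± 5.57 against 119 ± 3.58 CPM. Of the 5 genes of poly(A) binding 4 were above 0, and Pabpc1 was 167 ± 5.54 against 168 ± 9.58 CPM.

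Pathways that act on eIF4E and eIF2 gave mixed signs. Of 15 genes of mTORC1 and MNK signalling 5 were above and 10 below 0, with a median of -0.014, and Rps6, a ribosomal protein that this pathway phosphorylates, was 194 ± 7.24 against 189 ± 1.10 CPM. Of 12 genes of the integrated stress response, which phosphorylated eIF2 sets off, 8 were above 0, with a median of 0.050. The most abundant of them, Impact, an inhibitor of GCN2 that neurons express, was 242 ± 17.2 against 245 ± 22.6 CPM. Of 8 repressors of eIF4E and scanning helicases 4 were above 0, and Cyfip2, a partner of FMRP, was 919 ± 21.6 against 941 ± 54.0 CPM. The 5 other factors, of mitochondrial initiation, of hypusine synthesis and the eIF2 regulator Nck1, were all above 0, with a median of 0.023 and Dohh, a hypusine enzyme, at 29.8 ± 1.67 against 30.8 ± 2.15 CPM.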

How the data were processed

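RNA was measured by poly(A) sequencing of 3 OVX and 3 OVX+RJ hippocampus libraries. The authors deposited expected counts per gene symbol, not scaled between libraries; the build GRCm39 and the tools HISAT2 2.2.1, StringTie 2.2.1, fastp 0.23.4 and bcl2fastq 2.19 stand in the submitters' processing notes, without roles. How strand, annotation and multiply aligned reads were handled is not given in the sources, so near-identical copies can share counts. Columns were matched to groups by the library name that each label gives. Non-whole values at 51 features were rounded, and 1 row with no gene name was left out.

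In R 4.3.3, edgeR 4.0.16 tested genes kept by filterByExpr, with TMM factors from 0.978 to 1.01, glmQLFit and glmQLFTest and Benjamini-Hochberg adjustment over 18629 genes at 0.05. Fitted fold changes use TMM, whereas printed CPM do not. Errors and 95% intervals come from limma 3.58.1, fitted to log2 CPM (prior count 2) with moderated variances. Counts simulated at the trended dispersion were also fitted, with a looser filter than the main fit, and no result here rests on them. CPM per kilobase, shared 75-base stretches and start codons came from GENCODE M21 and promoters from RefSeq, both on GRCm38, another build than the authors', matched by symbol.

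Named with values in every library or as means were the 8 members of lowest p per direction, the 2 highest by CPM in each role and 16 of prior interest, of which Eif2s3y is not analysed here. The other members named, among them Eif1b, Eif3j1, Eif4a3, Eif4e3 and Eif4g3, were chosen after their values were seen. Of each related list the gene with the highest mean CPM is named. The members and lists were chosen with earlier results of these data known. Alternatives were DESeq2 1.42.0, limma-voom, other scalings and filters, the replicate number as a block and each library left out.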

Additional observations from a re-analysis of the deposited data

How the results depend on the processing

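No member was called under any of the 14 alternatives. The median log2 fold change of the members stayed between 0.0014 and 0.031, and 27 to 35 members lay above 0, against 32. Over all genes DESeq2 called 13 genes, the replicate block 1, and libraries left out in turn between 0 and 8, the latter without OVX+RJ 2, against 0 in edgeR's test of all 6. Members at an unadjusted p under 0.05 numbered 1 with every gene of at least 1 count tested, 1 with the replicate block and 0 (without OVX 1) to 2 with a library left out, against 2. Members whose groups do not overlap numbered 7 (without OVX 2) to 11 (without OVX+RJ 2) with a library left out, against 5. Groups of fewer libraries overlap less often, and the matching shares of all genes were not counted. These counts are therefore not read as a result about the members. Deviations of same-numbered libraries correlated across genes at 0.046, -0.0024 and 0.0031, beside -0.044 to 0.045 for the other pairs. With 3 libraries a group, such values cannot tell whether the numbers pair the libraries. With each library left out, Eif3j2 ran on the log2 fold scale from 0.32 to 0.54, Eif1a from 0.13 to 0.20, Eif2d from -0.31 to -0.085 and Eif5 from 0.050 to 0.17. Ratios between paralogs depend on the length used: without length Eif4a2 over Eif4a1 was 4.17, Eif5a over Eif5a2 3.19, Eif1ax over Eif1a 3.59 and Eif4ebp2 over Eif4ebp1 55.2, and with the union of exons Eif5a over Eif5a2 was 6.75 and Eif4e over Eif4e2 3.44, all in the same order. Few counts limit Eif4ebp1 and Eif4ebp3.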
